A study of Homo sapiens with 13 samples.

Results

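P12-ICHIKAWA and TALL-1 are cell lines of T-cell acute lymphoblastic leukemia (T-ALL), a cancer of developing T cells, and the expression arrays of the pair were set against those of 5 other T-ALL lines, ALL-SIL, CCRF-CEM, HPB-ALL, Jurkat and Molt4. Expression was measured with Affymetrix HG-U133 Plus 2.0 arrays, 1 array per line, in 13 untreated lines kept in RPMI-1640 medium with serum, 7 of them T-ALL and 6 of B-cell precursor ALL (BCP-ALL). The series was collected to relate gene expression to the response of ALL cells to methotrexate, a folate antagonist. A gene was counted as outside the range when both arrays of the pair lay above the highest, or both below the lowest, of the 5 other T-ALL lines. The genes were thus chosen by the deposited log2 expression values of these 7 arrays, after 1 probe set per gene was picked on all 13 arrays. The differences between the pair and the 5 lines are given as a description, without a test.

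By this rule 1983 of 18568 genes (10.7%) lay above the range and 2217 (11.9%) below it. A distance of at least 1 log2 unit, which is 2-fold, separated the nearer array of the pair from the nearest of the 5 lines for 49 genes above (0.264%) and 78 genes below (0.42%), and these 127 genes (0.684%) are described first. This distance is called the gap. Just inside the limit were JAKMIP1 above, with a gap of 1.03, and OTUD1 below, with 1.02. Just outside it were NDST3, with 0.94, and MYOM2, with 0.996. Values were log2 of the signal plus 16, so the lowest possible value was 4 and a gap understates the fold of a weakly expressed gene. Values under 5 are called near the floor. Of the 4200 genes outside the range on either side, 713 were near the floor in all 7 T-ALL lines, and for those the order of the arrays carries little information.

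T-ALL lines are arrested at stages of thymocyte development and differ in the oncogenic transcription factors, surface receptors and chromosome changes they carry. NOTCH receptors, the T-cell receptor with its kinases LCK and ZAP70, and cytokine receptors signaling through JAK and STAT proteins govern growth in the normal thymus. A gain or loss of part of a chromosome is common in leukemia lines and can move the RNA of many neighboring genes at once.

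The pair had the markers of its label. CD3D, a chain of the T-cell receptor complex, stood at 11.77 in P12-ICHIKAWA and 11.84 in TALL-1, within the 11.56 to 12.25 of the other 5 T-ALL lines, and at 4.0 to 4.38 in the 6 BCP-ALL lines. CD3E, CD7, CD2, CD5 and LCK also lay inside the range, and CD3G lay below it. The B-cell factors PAX5 and EBF1 were near the floor in both lines. CD79A, a chain of the B-cell receptor, was at 8.15 and 8.03, against 5.21 to 8.05 in the other T-ALL lines and 9.28 to 11.10 in BCP-ALL. None of 15 measured B-cell markers, 20 myeloid markers or 13 MHC class II genes lay outside the range, against 22.6% of all genes. In the pair 9, 12 and 6 of them were near the floor, where the order of the arrays carries little information.

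The arrays of P12-ICHIKAWA and TALL-1 were much closer to each other than any other pair of T-ALL lines. Only 41 of 18568 genes (0.221%) differed between them by at least 1 log2 unit, 18 higher in P12-ICHIKAWA and 23 higher in TALL-1. Among the 5 other lines, 1268 to 2520 genes differed by as much in the 10 possible pairs, with the fewest between Jurkat and Molt4. Between a line of the pair and one of the 5, the number was 1630 to 2115. Pearson's r across genes was 0.994 within the pair, 0.906 to 0.952 among the 5 and 0.910 to 0.930 between the pair and the 5. This r is across genes of arrays that share the probe sets and the scale, and genes are not independent replicates. The labels give P12-ICHIKAWA and TALL-1 as separate lines. Because the arrays were this alike, the pair was counted as about 1 sample, so the comparison amounts to 1 sample against 5 and its own error is not known. Whether the likeness lies in the lines or in the cultures was not tested.

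**Figure D1:**
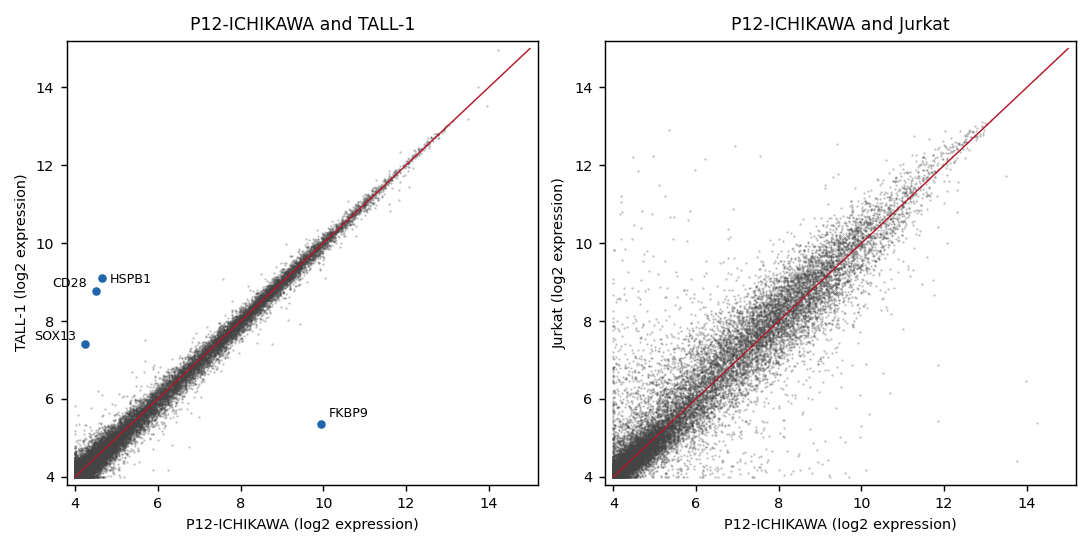
Log2 expression of 18568 genes in P12-ICHIKAWA (x axis) against TALL-1 (y axis, left) and against Jurkat (y axis, right), 1 point per gene, with the line of equal values in red. On the left the points follow the line and 4 of the genes that differed most are marked in blue, while on the right, with r at 0.930, they spread widely.

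A few genes nevertheless told the arrays apart. FKBP9, a peptidyl-prolyl isomerase of the endoplasmic reticulum, was at 9.95 in P12-ICHIKAWA and 5.35 in TALL-1, with the 5 other lines between 5.03 and 5.60. HSPB1, a small heat shock protein, was at 4.66 in P12-ICHIKAWA and 9.11 in TALL-1, and spanned 6.33 to 10.93 in the others. SOX13, a transcription factor of gamma-delta T cells, was at 4.23 and 7.41, with the others no higher than 4.46. CD28, the costimulatory receptor of T cells, was at 4.50 and 8.78 by its brightest probe set, but its other probe sets gave 7.02 and 7.35 or 4.97 and 5.77, so the size of this difference rested on 1 probe set. Of the 127 genes with a gap of at least 1, NTM alone differed within the pair by as much.

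The gene furthest above the range was RHEX, a membrane protein known from erythroid cells that acts downstream of the erythropoietin receptor. It stood at 14.24 in P12-ICHIKAWA and 14.97 in TALL-1. In ALL-SIL, CCRF-CEM, HPB-ALL, Jurkat and Molt4 it stood at 4.98, 5.49, 5.23, 5.37 and 5.14, and in the 6 BCP-ALL lines at 5.16 to 5.54. The gap of 8.75 corresponded to 431-fold, and 14.97 was the highest value of any gene in the pair. Both other probe sets of RHEX also lay above the range, with the stronger at 7.44 and 7.80 against a highest value of 5.24 in the others, so the direction was shared and the size was not. Of 13 measured erythroid and megakaryocyte markers, 2 (HBB and PF4) lay above the range and 1 (ITGA2B) below, against 10.7% and 11.9% of all genes, and 9 were near the floor in the pair, ALAS2 and KLF1 among them. HBB was at 7.58 and 7.56, above a highest value of 7.29, with 1 of its 3 other probe sets on the same side.

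FEZ1, an adaptor of kinesin transport studied in neurons, was at 13.97 and 13.53 in the pair. The 5 other lines were at 6.57, 6.51, 6.55, 6.45 and 6.55. Its second probe set was at 5.00 and 5.15, inside the range, so the call for FEZ1 depends on the probe set used.

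PEG10 and SGCE are neighboring imprinted genes on chromosome 7, the first derived from a retrotransposon and the second encoding epsilon-sarcoglycan. PEG10 was at 9.61 and 9.26 in the pair, and at 4.0, 4.01, 4.0, 4.10 and 4.15 in ALL-SIL, CCRF-CEM, HPB-ALL, Jurkat and Molt4. SGCE was at 7.41 and 7.42, and at 4.0, 4.13, 4.28, 4.0 and 4.0 in the same lines. Both genes were near the floor in each of the 5 lines and well above it in both lines of the pair. BCP-ALL lines reached 9.10 for PEG10, just under the pair, and 7.83 for SGCE, above it.

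Among genes of lymphocytes, SLAMF6, a surface receptor of the SLAM family, was at 10.48 and 10.54 in the pair. It was at 6.22, 7.37, 6.06, 8.28 and 5.90 in the 5 lines. SKAP1, an adaptor that links the T-cell receptor to integrins, was at 10.70 in both lines, and at 4.53, 9.36, 4.46, 8.19 and 4.47 in the others, so CCRF-CEM and Jurkat expressed it strongly too. CTSW, a cysteine protease of cytotoxic lymphocytes, was at 8.53 and 8.55, against a highest value of 7.14. RORA, a nuclear receptor, was at 7.60 and 7.87, against a highest value of 6.22, with 3 of its 7 other probe sets on the same side. BTN3A2, a butyrophilin, and P2RY10, a receptor of lymphocytes, had gaps of 1.23 and 1.10. Over these lymphocyte genes the gap ran from 1.10 for P2RY10 to 2.20 for SLAMF6.

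Other genes above the range act in adhesion, on nerve cells or in small GTPase control. TENM1, a teneurin, was at 10.19 and 10.43 against 5.32 to 5.85. NTM, an adhesion protein of the IgLON family, was at 7.58 and 9.08 against 4.41 to 4.66. JAM3, a junctional adhesion molecule, was at 11.25 and 10.91 against 6.59 to 9.31, and no higher than 4.15 in any BCP-ALL line. DENND2D, an exchange factor for Rab GTPases, was at 10.70 and 10.80 against 4.10 to 6.14. RAP1GAP, which inactivates Rap1, was at 11.60 and 11.86, with Jurkat at 9.64 and CCRF-CEM at 8.48 nearest and the rest at 5.90 to 6.16. Others among the 15 genes furthest above were DPF3, a subunit of the BAF chromatin remodeling complex, GAS2, a cytoskeletal protein, GFRA4, a receptor of the GDNF family, AK4, a mitochondrial adenylate kinase, CIB3 and ANKFN1, with gaps from 2.07 to 2.65. CIB3 and ANKFN1 each had 1 other probe set, which did not lie above the range.

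**Figure D2:**
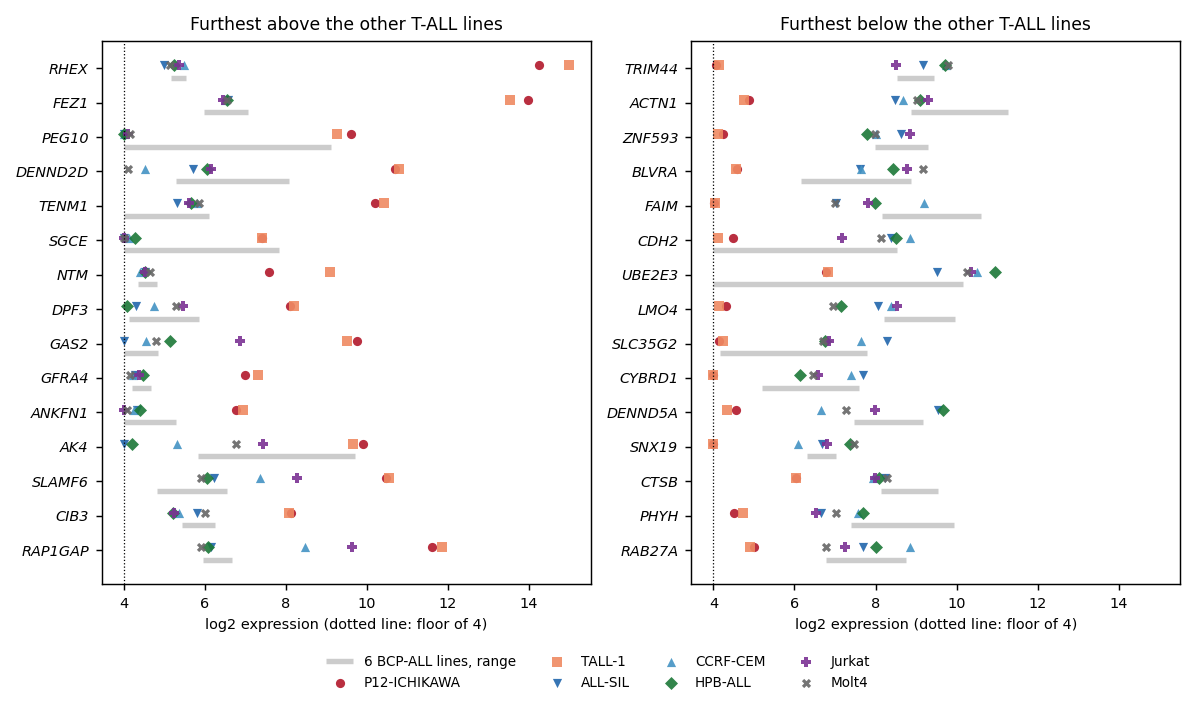
Log2 expression (x axis) of the 15 genes with the largest gap above (left) and below (right) the 5 other T-ALL lines, 1 symbol per line, with the range of the 6 BCP-ALL lines as a gray bar and the floor of 4 dotted. Both symbols of the pair stand apart from the 5 others in each row, from RHEX with a gap of 8.75 to RAP1GAP with 1.95 on the left, and from TRIM44 with 4.36 to RAB27A with 1.79 on the right.

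On the other side, TRIM44, a tripartite motif protein, had the largest gap, 4.36. It stood at 4.05 in P12-ICHIKAWA and 4.14 in TALL-1. In ALL-SIL, CCRF-CEM, HPB-ALL, Jurkat and Molt4 it stood at 9.17, 9.73, 9.72, 8.50 and 9.79, and in BCP-ALL at 8.54 to 9.44. A further probe set placed the pair at 4.08 and 4.22 and the 5 lines at 7.82 or more, and the remaining one was near the floor in all 7. The gene was thus at the floor in the pair and well expressed in each of the other 11 lines.

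ACTN1, an actin crosslinking protein, was at 4.87 and 4.77 in the pair. It was at 8.49, 8.69, 9.11, 9.28 and 9.02 in the 5 lines, and at 8.88 or higher in BCP-ALL. ZNF593, a zinc finger protein measured by 1 probe set, was at 4.25 and 4.12, against 8.62, 8.0, 7.80, 8.84 and 7.99. FAIM, which inhibits Fas-induced apoptosis, was at 4.03 in both lines, against 7.02, 9.19, 7.99, 7.81 and 6.99. As with TRIM44, all 3 were near the floor in the pair and in none of the other T-ALL lines.

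Enzymes and transport proteins were also among the genes furthest below. BLVRA, biliverdin reductase, was at 4.59 and 4.56 against 7.63 to 9.16. CYBRD1, a ferric reductase, was at 4.0 in both lines against 6.15 to 7.70. PHYH, a peroxisomal enzyme of phytanic acid breakdown, was at 4.51 and 4.72 against 6.53 to 7.70. CTSB, a lysosomal cysteine protease, was at 6.03 in both against 7.94 to 8.28, and all 4 of its other probe sets lay on the same side. RAB27A, a GTPase of secretory granules, was at 5.00 and 4.90 against 6.79 to 8.86, and its 4 other probe sets were also below. UBE2E3, a ubiquitin-conjugating enzyme, was lower by a gap of 2.69 but still at 6.78 and 6.82 in the pair. DENND5A, SNX19 and SLC35G2 completed this group, with gaps of 2.11, 2.09 and 2.48.

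Adhesion and signaling genes followed. CDH2, N-cadherin, was at 4.48 and 4.11 against 7.18 to 8.86. LMO4, a LIM domain protein, was at 4.31 and 4.14 against 6.94 to 8.54, although 3 of its 4 other probe sets were inside the range, near the floor in most lines. NFKB1, a subunit of the transcription factor NF-kB, was at 4.33 and 4.11, against 7.01, 6.93, 8.33, 7.86 and 5.83. CYLD, a deubiquitinase that restrains NF-kB, was at 5.09 and 5.06 against 6.20 to 6.76. PTPN6, the phosphatase SHP-1, was at 6.32 and 5.91, against 9.59, 8.58, 9.89, 8.56 and 7.43. The RNA sensor RIGI and the antiviral enzyme OAS3 were lower too, with gaps of 1.27 and 1.34, while in the list of 25 measured interferon-stimulated genes 1 lay above and 1 below the range.

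Some of these differences ran from near the floor to a value of 6 or more. At 6 or more in both lines of the pair and near the floor in all 5 others were 8 genes, PEG10, SGCE, NTM, GFRA4, ANKFN1, ATXN1, BALR6 and VAC14-AS1. ATXN1 only just met both limits, at 6.04 and 6.26 against a highest value of 4.98. Of its 4 other probe sets 1 lay on the same side. Near the floor in the pair and at 6 or more in all 5 others were 22 genes, among them TRIM44, ACTN1, ZNF593, BLVRA, FAIM, CDH2, LMO4, PHYH and CYBRD1. The BCP-ALL lines had no part in the range rule, although their values entered the mean that picked the probe set of each gene. Of the 49 genes above, 44 also lay above all 6 BCP-ALL lines, and of the 78 below, 54 lay below all 6. The 5 exceptions above were SGCE, AK4, ATXN1, EPAS1 and KCTD1. In the pair, 18.8% of 8783 genes with a mean of 6 or more over the T-ALL arrays lay above all 6 BCP-ALL lines. The share below all 6 was 11.6%. Those 8783 genes held only 29 of the 49 and 65 of the 78, so these shares are an approximate background. Where a gene had more than 1 probe set, another one lay on the same side for 23 of 29 genes above and 42 of 50 below. For these probe set counts the share over all genes is not given.

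The sequence upstream of the start site is shown for the first and the second gene above with an entry in the RefSeq promoter table. On the other side it is shown for TRIM44 and ZNF593. These genes differed widely between the pair and the other lines. ACTN1, with a gap of 3.62 that ranked between TRIM44 and ZNF593, also had an entry. It held 25 CG dinucleotides in the 250 bases before the start and is not shown. The 250 bases before the start are given on the strand of the gene, from GRCh38.p14, with each CG dinucleotide in capitals. They lie at chr1:206083345-206083594 (+ strand) for RHEX, chr11:125496266-125496515 (- strand) for FEZ1, chr11:35662525-35662774 (+ strand) for TRIM44 and chr1:26169658-26169907 (+ strand) for ZNF593.
RHEX: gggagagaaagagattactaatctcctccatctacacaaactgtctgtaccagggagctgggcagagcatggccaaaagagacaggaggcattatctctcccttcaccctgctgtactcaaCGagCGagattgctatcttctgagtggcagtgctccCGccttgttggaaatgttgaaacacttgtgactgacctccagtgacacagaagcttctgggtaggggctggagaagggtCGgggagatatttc
FEZ1: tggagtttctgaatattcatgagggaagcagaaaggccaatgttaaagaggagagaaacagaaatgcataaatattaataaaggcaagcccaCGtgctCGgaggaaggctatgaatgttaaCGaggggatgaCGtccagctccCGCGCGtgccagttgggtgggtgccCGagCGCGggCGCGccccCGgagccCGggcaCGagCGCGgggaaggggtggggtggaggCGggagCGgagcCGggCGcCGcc
TRIM44: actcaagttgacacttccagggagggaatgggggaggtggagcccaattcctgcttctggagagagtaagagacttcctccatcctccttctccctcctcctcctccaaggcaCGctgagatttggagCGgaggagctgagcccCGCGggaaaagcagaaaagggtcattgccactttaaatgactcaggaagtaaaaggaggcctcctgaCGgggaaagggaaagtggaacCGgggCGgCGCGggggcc
ZNF593: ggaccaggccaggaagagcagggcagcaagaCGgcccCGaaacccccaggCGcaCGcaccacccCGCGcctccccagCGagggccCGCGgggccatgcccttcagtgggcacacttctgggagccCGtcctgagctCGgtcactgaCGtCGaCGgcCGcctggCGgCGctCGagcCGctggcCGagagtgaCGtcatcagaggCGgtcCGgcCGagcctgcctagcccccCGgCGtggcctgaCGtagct
RHEX held 4 CG dinucleotides in these 250 bases, FEZ1 22, TRIM44 9 and ZNF593 27. In windows from 250 bases before to 50 after the start, the genes below by at least 1 log2 unit had a median of 28 (69 genes with an entry) and those above had 8.5 (36 genes). Genes at 6 or more in all 5 other lines had a median of 27, and those near the floor in all 5 had 10, while all 14577 genes had 23. At least 15 CG dinucleotides were found in 87.0% of the windows of the genes below, against 87.4% for genes at 6 or more in all 5 lines, and in 44.4% of those of the genes above, against 41.4% for genes near the floor. Only 9 of the 49 genes above were themselves near the floor in all 5 lines. DNA methylation was not measured.

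Genes below the range were unevenly spread over the chromosomes. The count was made over 8783 genes with a mean of 6 or more in the 7 T-ALL arrays, of which 15.7% lay below the range and 11.3% above. On chromosome 10 the share below was 39.5% (135 of 342 genes), on chromosome 15 it was 42% (120 of 286) and on chromosome 9 it was 36.3% (126 of 347). Of the remaining chromosomes none passed 20.3%, which was the share on chromosome 4. Genes above the range made up 4.39%, 2.45% and 5.48% on chromosomes 10, 15 and 9. Leaving these 3 out, 12.8% of genes were below and 12.2% above when the other chromosomes were pooled. Single chromosomes among them were not even. Chromosome 4 had 20.3% below and 7.1% above, and chromosome 6 had 4.94% below and 14.8% above.

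**Figure D3:**
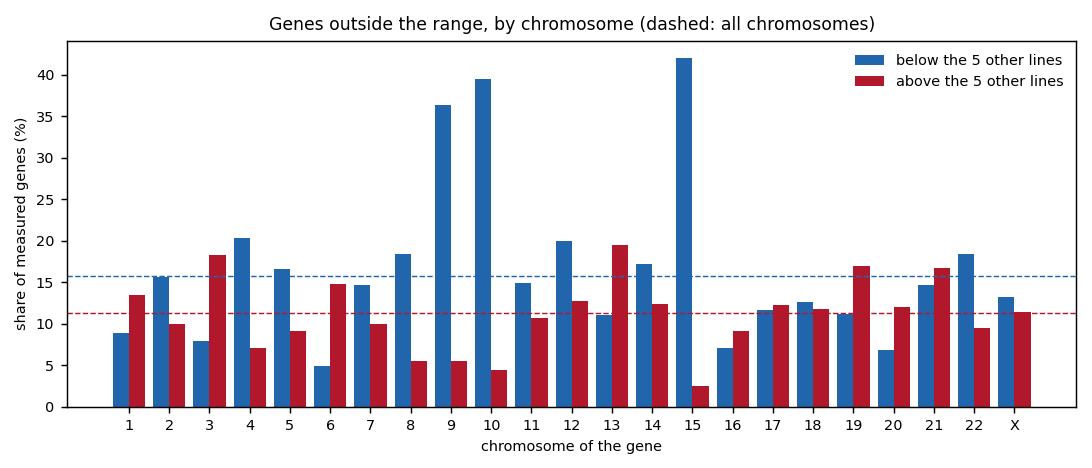
Share of measured genes (y axis, percent) that lay below (blue) or above (red) the 5 other T-ALL lines in both P12-ICHIKAWA and TALL-1, by chromosome (x axis), with the shares over all chromosomes, 15.7% and 11.3%, dashed. The blue bars of chromosomes 9, 10 and 15 stand at 36.3%, 39.5% and 42%.

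The median levels of these chromosomes were lower too. On chromosome 10 the median difference of a gene from the mean of the 5 lines was -0.39 log2 units in both P12-ICHIKAWA and TALL-1, and on chromosome 15 it was -0.39 and -0.35. On chromosome 9 it was -0.32 and -0.40. Each of the 5 lines had medians between -0.10 and 0.10 on these chromosomes. Over all chromosomes the medians of the pair were -0.04 and -0.05. Single chromosomes stood apart in other lines as well, as HPB-ALL had a median of -0.36 on chromosome 16. Against the BCP-ALL lines, 23.4%, 25.2% and 26.5% of the genes of chromosomes 10, 15 and 9 lay below all 6, against 11.6% over all chromosomes. DNA copy number was not analysed here, and its part in these shifts was not tested.

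Along these chromosomes the difference was not even. Genes were taken in blocks of 30 in the order of their RefSeq start sites. At least 15 of 30 genes were below the range in 13 of 282 full blocks, with a median of 4 over all blocks, and these 13 lay on chromosomes 9 (3 blocks), 10 (3), 12 (3) and 15 (4). On chromosome 10 they were the first 3 blocks, from ZMYND11 to ZNF32, with 23, 19 and 17 genes below and block medians of -0.78, -0.98 and -0.76 in P12-ICHIKAWA. On chromosome 12 they were also the first 3, from IQSEC3 to ITPR2, with 19, 19 and 17 genes below, which was 61.1% of 90 genes, against 10.8% of the other 400 genes of the chromosome. In the second and the third of these blocks ALL-SIL was at -0.25, in the direction of the pair. On chromosome 15 the 4 blocks ran from MEIS2 to DPP8, with 16 to 22 genes below. On chromosome 9 the blocks were spread over its length. Only 1 block had at least 15 genes above, at the end of chromosome 19 between ZNF542P and SLC27A5. There 18 of 30 genes, many of them zinc finger genes, were higher in the pair. The 5 other lines were not counted in this way, but they also had low block medians elsewhere. HPB-ALL reached -0.84 on chromosome 3 and -0.86 on chromosome 16, Molt4 -0.77 on chromosome 6 and ALL-SIL -0.69 on chromosome 17.

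**Figure D4:**
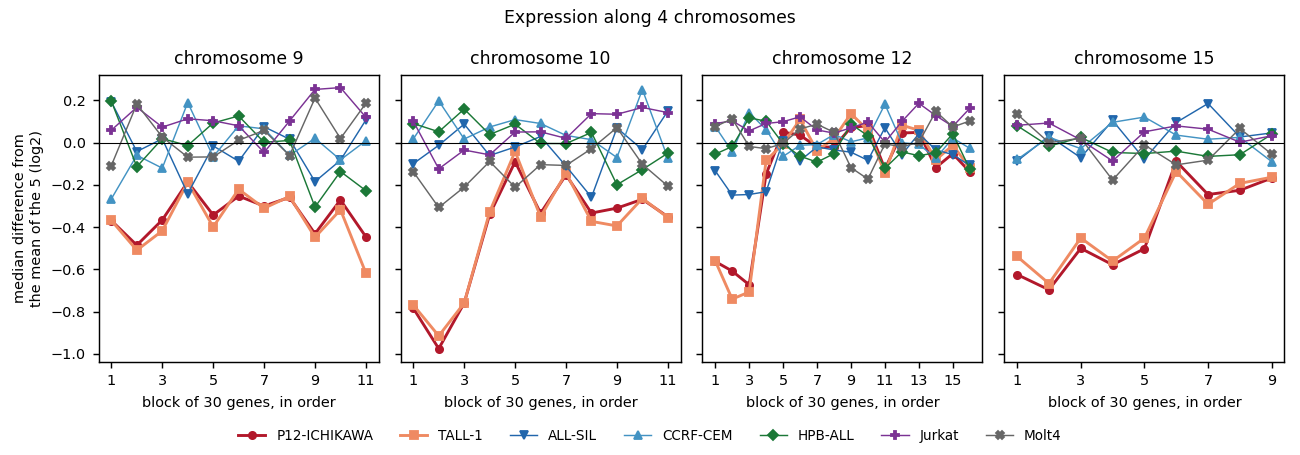
Median difference of log2 expression from the mean of the 5 other T-ALL lines (y axis) for successive full blocks of 30 genes (x axis) on chromosomes 9, 10, 12 and 15, 1 line per cell line. The 2 lines of the pair run together and reach -0.98 on chromosome 10, below the 5 others, while on chromosome 12 they depart from them in the first 3 blocks.

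Some of the genes furthest below lay in these blocks. The 13 blocks held 390 of the 8783 genes (4.44%), and 12 of the 65 genes counted here that were below by at least 1 log2 unit. These were 4 on chromosome 10, among them PHYH and FAM171A1, 5 on chromosome 12, among them PTPN6 and the branched-chain aminotransferase BCAT1, 2 on chromosome 15, SQOR and RAB27A, and GNE on chromosome 9. Both counts come from the values that chose the genes and the blocks. TRIM44, ACTN1, ZNF593, BLVRA and FAIM lay outside these 13 blocks. The block of chromosome 11 around TRIM44, from LMO2 to ARFGAP2, had 12 of 30 genes below, short of the 15 required. Its median was -0.31 in both lines of the pair. None of the 49 genes above was on chromosome 9 or 10.

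Pathways were read through 36 gene lists, beside the 10.7% above and 11.9% below of all genes, where the median of pair mean minus mean of the 5 lines was -0.02. In the T-cell receptor list 3 of 21 measured genes were above and 2 below. LCP2, the adaptor SLP-76, was at 9.65 and 9.60 against 8.44 to 9.11, with 4 of its 5 other probe sets on the same side. UBASH3A, a negative regulator of receptor signaling, was at 8.19 and 8.31 against 6.16 to 7.82. CD3G was at 8.01 in both lines against 8.23 to 10.11, and ZAP70 at 8.63 and 8.68 against 8.87 to 10.49. Of 21 thymocyte stage markers, CD69 and CD38 were above and CD8A and CD99 below. CD8A was at 4.06 and 4.25, but Jurkat at 4.53 and CCRF-CEM at 5.69 were low as well, and the other lines were at 8.22 to 10.41.

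Among 20 T-lineage transcription factors 5 were above and 1 below. BCL11B, needed for commitment to the T lineage, was at 10.63 and 10.64 against 9.49 to 10.04. NFATC1, a factor activated by calcineurin, was at 8.39 and 8.48 against 6.68 to 7.63. TCF12, an E protein on chromosome 15, was at 8.95 and 8.99 against 9.90 to 10.63. Of 19 stem and early progenitor genes 3 were above and none below, while 12 were near the floor in the pair. LMO2, a T-ALL oncogene and progenitor factor, was at 8.50 and 8.28, just above CCRF-CEM at 8.0, with Molt4 at 6.55 and the rest at 4.18 to 4.52. SPINK2, a protease inhibitor of progenitors, was at 8.86 and 9.38, above Jurkat at 7.97. In both cases the pair extended a wide range rather than standing apart from it.

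In the NOTCH list 1 of 24 genes was above and 3 below. NOTCH1, on chromosome 9, was at 8.38 and 8.06 against 8.51 to 9.81, and NOTCH3 at 5.82 and 5.43 against 6.56 to 8.42, while its other probe set was near the floor in all 7 lines. The glycosyltransferase MFNG, which modifies NOTCH receptors, was at 9.64 and 9.52, above 9.03. MYC was at 10.21 and 10.31 against 10.67 to 11.32. In the cytokine and JAK-STAT list, 3 of 28 genes were above and 3 below. The 3 above were the neighbors STAT5A, STAT5B and STAT3 of chromosome 17. STAT5A, measured by 1 probe set, was at 9.36 and 9.43, against 8.10, 8.04, 5.42, 7.30 and 7.87 in ALL-SIL, CCRF-CEM, HPB-ALL, Jurkat and Molt4. STAT5B had a gap of 0.21 and STAT3 of 0.51, and both returned to the inside of the range when the median of all probe sets was used.

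**Figure D5:**
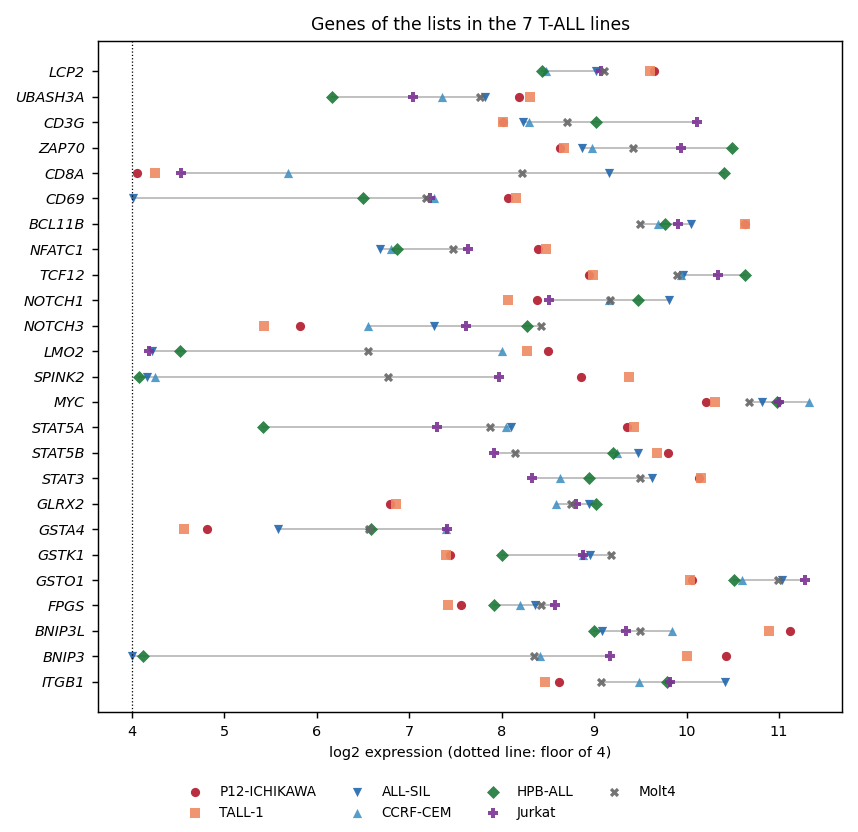
Log2 expression (x axis) of 25 genes drawn from the gene lists in the 7 T-ALL lines, 1 symbol per line, with a gray bar over the 5 other lines and the floor of 4 dotted. STAT5A and GLRX2 stand clear of the bar by 1.26 and 1.73, whereas LMO2 and CD8A lie just past its end.

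The study concerned methotrexate and glutathione, so these lists were read in full. Of 40 genes of glutathione synthesis and use 3 were above and 7 below, which were GSTA4, GSTK1, GSTO1, LAP3, GCLM, SLC3A2 and SLC7A11. The glutathione transferase GSTK1 was at 7.44 and 7.39 against 8.0 to 9.18, and GSTO1, on chromosome 10, was at 10.05 and 10.04 against 10.52 to 11.28. GSTA4 was at 4.82 and 4.56 against 5.58 to 7.41, a difference not seen in its other probe set. Of 16 thioredoxin system genes 1 was above and 5 below, and none was near the floor in the pair. GLRX2, the mitochondrial glutaredoxin, was at 6.79 and 6.86, against 8.95, 8.59, 9.02, 8.81 and 8.75, and was the one with a gap over 1. Of 24 folate and methotrexate genes 3 were above and 7 below. FPGS on chromosome 9, which adds the glutamate chain that retains methotrexate in the cell, was at 7.56 and 7.42 against 7.92 to 8.57, with 8.89 to 9.25 in BCP-ALL. ATIC, a purine synthesis enzyme, was at 10.20 and 10.26 against 10.50 to 10.95. SHMT1 and MTHFD1L, which were 2 of the 3 above, were at 5.0 or lower in all 7 lines.

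Of 27 glycolysis and hypoxia genes, 5 were above and 5 below. BNIP3L, a mitophagy receptor, was at 11.12 and 10.89 against 8.99 to 9.84. Its relative BNIP3 was at 10.43 and 10.00, against 4.0, 8.42, 4.13, 9.17 and 8.35, so ALL-SIL and HPB-ALL were near the floor and the other 3 were not. ADM, NDRG1 and GPI were the others above. The 5 below were the glycolytic enzymes PFKP, TPI1, GAPDH, ENO2 and LDHB. GAPDH was at 12.57 and 12.45 against 12.61 to 12.82, and ENO2 at 7.56 and 7.31 against 7.82 to 8.48. At least PFKP, on chromosome 10, and TPI1 and GAPDH, on chromosome 12, lay in runs of neighboring genes that were all below. The hypoxia-inducible factor EPAS1, which is not in the list, had a gap of 1.33 above. For the BCL2 family 5 of 18 genes were below and none above. They included the pro-apoptotic BMF, on chromosome 15, at 4.33 and 4.28. CCRF-CEM at 4.50, Molt4 at 4.67 and Jurkat at 4.95 were near the floor for BMF as well. For serine synthesis and ATF4 targets the count was 5 of 19 below and none above, with TRIB3 at 8.39 and 8.17 against 8.92 to 10.44. For G1 cyclins and inhibitors 5 of 21 were below and 2 above. Among those below was CDKN1B, the inhibitor p27 on chromosome 12, at 8.71 and 8.45 against 9.25 to 10.13. The cytoskeleton, annexin and S100 list had the lowest median, -0.48, with 4 of 21 below and 1 above. Of 20 DNA replication genes 2 were below and none above, and of 11 genes in and around 9p21 none was outside.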

How the data were processed

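Total RNA of 13 untreated ALL cell lines was hybridized to Affymetrix HG-U133 Plus 2.0 arrays, 1 array per line, so no line has a replicate. The authors deposited log2 values made with the iterPLIER+16 algorithm in Affymetrix Expression Console, whose version and between-array scaling are not given in the sources used here. Array medians ran from 5.05 to 5.37 and were 5.21 in both P12-ICHIKAWA and TALL-1. Of 42450 probe sets, 38125 had 1 gene in the platform annotation, 1742 several and 2583 none. Gene IDs matched 38079 probe sets to RefSeq, and those took the RefSeq symbol. Each of 18568 genes took its probe set with the highest mean over the 13 arrays, and probe sets were not pooled. Values were used as deposited, with Python 3.11.15, pandas 2.3.3 and numpy 2.4.6. The counting was tested on simulated data.

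The text names the 15 genes furthest from the range on each side, up to 4 genes per list with a gap of at least 0.1, and the 10 with the largest difference within the pair. Other genes among the 127, PF4, the glycolysis genes below and GPI, and the genes drawn in the plots, were picked once their values were known. The members and gene lists were chosen with earlier results of these data known. The count by chromosome, the mean of 6, the blocks of 30, the first 3 blocks of chromosome 12, the 15 CG dinucleotides and the gap of 0.1 were set after the values were seen. Alternatives were the probe set with the highest SD, the median over probe sets, quantile normalization, median centring, the mean of the pair or 1 of its arrays, a filter at 6, and leaving out lines. The methods credit the pair, HPB-ALL and ALL-SIL to one provider and the other 3 T-ALL lines to another, so the pair was also set against ALL-SIL and HPB-ALL alone. With 1 array per line, precision is limited by the number of arrays.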

Additional observations from a re-analysis of the deposited data

Results flagged for a closer look

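For some named genes, 1 of the 5 other T-ALL lines lay far from the other 4 by Dixon's test. The test flags about 1 in 20 groups by chance, so a few of these 14 would be flagged without any real difference. How many genes were screened is not given here, so the 14 cannot be set against the number due to chance. ALL-SIL was the lowest for ASAH1 at 6.32, CD69 at 4.01 and S100A10 at 4.34, and the highest for MAML3 at 7.20 and SOX13 at 4.46. HPB-ALL was the lowest for DNMT3B at 6.78, GSTK1 at 8.0, MFNG at 4.01 and MSH6 at 4.0, and the highest for FAM47C at 6.35. CCRF-CEM was the highest for NKX2-5, a T-ALL oncogene, at 16.69 and for the peroxiredoxin PRDX4 at 10.87. Molt4 was the highest for BCL2L13 at 8.24, and Jurkat the lowest for SHMT1 at 4.48. SOX13 and SHMT1 were near the floor in all 5 lines, so their flags carry little information. In CD69, MFNG, MSH6, S100A10 and ASAH1 the low line widened the range downward, and P12-ICHIKAWA and TALL-1 lay above its upper end.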

How the results depend on the processing

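No paired analysis was possible because the labels carry no replicate numbers that the groups share. Each of the 49 genes above and the 78 below stayed on its side with the probe set of highest SD, quantile normalization or median centring. With the median over probe sets all 49 stayed above and 3 of the 78 came inside. The other alternatives used fewer lines or arrays, or a filter at 6. They could not bring these genes inside the range, so they are no check on them. The counts moved more. Genes below by at least 1 log2 unit numbered 51 with the median over probe sets and 285 against ALL-SIL and HPB-ALL alone, where those above by as much numbered 313. Genes above the range numbered 2978 with the mean of the pair, 3273 with P12-ICHIKAWA alone, 3130 with TALL-1 alone, 1194 among genes at 6 or more in any T-ALL line and 4671 against ALL-SIL and HPB-ALL. Genes below numbered 3576, 3574 and 4166 with P12-ICHIKAWA alone, TALL-1 alone and against ALL-SIL and HPB-ALL. Fewer lines or arrays in the rule widen the count by construction. Leaving out each of the 5 lines gave 2298 to 2632 genes above, 2442 to 3141 below, 57 to 92 above by at least 1 log2 unit (92 without CCRF-CEM, 77 without Jurkat) and 96 to 157 below by as much (157 without ALL-SIL). The same settings left 132 to 158 genes of chromosome 9 below (38% to 45.5%). On chromosome 10 they left 143 to 161 (41.8% to 47.1%) and on chromosome 15 125 to 139 (43.7% to 48.6%). Against ALL-SIL and HPB-ALL, 204 genes of chromosome 10 (59.6%) were below. The share over all chromosomes was not counted under these settings, so these numbers do not show how far the excess held. With the probe set of highest SD the pair returned inside the range for ABCB9 (gap -0.45), ITGA2 (-1.31), ITGA2B (-0.36), NCOA1 (-0.049), PMAIP1 (-0.14), SHMT1 (-0.36), TXN (-0.55) and VIM (-1.09). With the median over probe sets it did so for ABCB9 (-0.45), ASAH1 (-0.64), HBB (-0.067), ITGA2 (-0.51), ITGA2B (-0.16), MSH6 (-0.14), MTHFD1L (-0.069), SHMT1 (-0.032), STAT3 (-0.34), STAT5B (-0.057), TXN (-0.093) and VIM (-0.31). Levels within 1 log2 unit of the floor of 4 cannot be ordered.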
